A study of Mus musculus with 24 samples.

Results

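This account covers 10 genes of prostaglandin synthesis, breakdown and signalling, taken from a fixed list of symbols and matched by Ensembl identifier among the 54532 genes counted in every library. They are the cyclooxygenases Ptgs1 and Ptgs2, the prostaglandin E synthases Ptges, Ptges2 and Ptges3, the prostaglandin D synthases Ptgds and Hpgds, the inactivating enzyme Hpgd, and the prostaglandin E receptor genes Ptger2 and Ptger4. RNA came from the left gastrocnemius, a calf muscle, of wild-type C57/BL6 mice, sampled at 24 h according to the titles. The 24 libraries form 6 groups of 4. Female and male controls were sedentary and had saline (pH 7.2, tolerance 0.1) put into that muscle in 2 injections of 20 µl, with 5 days between them. Female and male sedentary pain animals had acid (pH 5.0, tolerance 0.1) at the same volume and spacing, with 6 min of electrically driven contraction of the muscle before the second injection. Female and male active pain animals had running wheels for 8 weeks and then the same acid and contraction. No group in these files had wheels without pain, acid without contraction, or contraction without acid, so acid and contraction cannot be told apart. Wheels set the active pain groups apart from the sedentary pain groups, but their effect without pain cannot be seen here. Library totals ran from 17612139 to 34039699 counts. Summed markers of myofibres, 7 genes such as Ckm and Acta1, held 86200 to 198000 CPM (read counts scaled to library size) in each library, so the tissue label fits the counts.

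Cyclooxygenases turn arachidonic acid, released from membranes by phospholipases, into prostaglandin H, which terminal synthases convert into prostaglandin E, prostaglandin D and related lipids. Ptgs1 is the form present in most resting tissues, while Ptgs2 is switched on by cytokines, growth factors and injury, and is the target of selective anti-inflammatory drugs. Prostaglandin E sensitises pain-sensing nerve endings and acts in injured muscle through the EP receptors, of which EP2 (Ptger2) and EP4 (Ptger4) raise cyclic AMP. The first step in the breakdown of prostaglandin E is made by Hpgd.

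The 250 bases upstream of 3 members that rose in female sedentary pain are shown, to set beside their values how far their sequences differ in base content and motifs. They are RefSeq sequences on GRCm38.p6, written 5′ to 3′ on the gene's strand and ending at the base before the RefSeq start. For Ptgs2 and Ptger4 that start is the one GENCODE M21 gives, while for Ptger2 84 bases lie between the window and the GENCODE start. All 10 members had an entry. Printed are the called members whose window lay wholly outside their own gene in GENCODE M21. Overlap of the windows with other genes was not checked. Capitals mark matches, on either strand, to TTNNGNAA, a loose form of the C/EBP site, or to GGGCGG, the GC box.
Ptgs2 (chr1:150099781-150100030, plus strand): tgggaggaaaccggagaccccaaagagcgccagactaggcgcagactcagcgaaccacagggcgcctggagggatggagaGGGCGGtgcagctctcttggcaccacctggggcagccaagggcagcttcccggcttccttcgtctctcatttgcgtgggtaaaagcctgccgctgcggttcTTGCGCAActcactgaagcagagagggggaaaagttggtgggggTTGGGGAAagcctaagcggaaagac
Ptger2 (chr14:44987861-44988110, plus strand): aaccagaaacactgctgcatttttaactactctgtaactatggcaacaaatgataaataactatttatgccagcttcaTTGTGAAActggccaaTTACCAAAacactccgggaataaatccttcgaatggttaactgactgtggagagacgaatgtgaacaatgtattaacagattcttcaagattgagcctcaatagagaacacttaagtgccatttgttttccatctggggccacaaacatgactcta
Ptger4 (chr15:5244188-5244437, minus strand): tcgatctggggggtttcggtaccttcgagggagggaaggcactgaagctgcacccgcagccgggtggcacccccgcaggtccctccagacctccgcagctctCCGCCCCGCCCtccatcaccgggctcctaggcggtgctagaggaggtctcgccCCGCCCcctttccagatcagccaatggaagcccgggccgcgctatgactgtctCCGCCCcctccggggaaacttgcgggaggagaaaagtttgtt
Bases G and C made up 61.6% of the Ptgs2 window, 38.0% of the Ptger2 window and 66.8% of the Ptger4 window, beside a median of 52.4% over 32851 RefSeq promoters. The Ptgs2 window held TTNNGNAA at -69 to -62, on both strands, and at -25 to -18, and GGGCGG at -170 to -165, counted from the RefSeq start. Ptger2 held TTNNGNAA at -172 to -165 and, on the minus strand, at -156 to -149. In Ptger4, GGGCGG lay on the minus strand at -148 to -143, -143 to -138, -95 to -90 and -42 to -37, the leading pair sharing a base. Of all promoters of this length, 36.8% held TTNNGNAA and 32.7% held GGGCGG. The searches for TATAAA (12.4% of all promoters), TGACGT, the core of the cyclic AMP response element (6.47%), and the NF-kappaB motif (7.25%) matched none of these 3 windows. Of the called members not printed, Ptges3 held the NF-kappaB motif at -87 to -78, on both strands, and Hpgds did not hold it. A match is a match of letters and shows no binding.

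Several libraries stood apart from their groups in markers of other cell types, and these values bear on the results that follow. Female sedentary pain replicates 3 and 4 held 3070 and 3840 CPM summed over 8 macrophage and monocyte markers and 47.6 and 91.1 CPM over 5 T and NK cell markers. Replicates 1 and 2 of that group held 376 and 561 CPM and 2.68 and 3.74 CPM of the same lists, and female controls held 67.8 to 155 CPM and 0.168 to 1.95 CPM. Summed over 6 neutrophil markers, male sedentary pain replicate 1 held 300 CPM against 2.28 to 2.69 CPM in its 3 companions, and male active pain replicate 2 held 78.6 CPM against 3.36 to 8.18 CPM. Neutrophil markers in female sedentary pain ran 21.4, 254, 38.9 and 57.3 CPM, in female active pain 4.90, 48.5, 112 and 5.90 CPM, and in controls of both sexes from 0.664 to 5.53 CPM. Female control replicates 3 and 4 held 873 and 441 CPM over 5 adipocyte markers, against 64.4 and 37.3 CPM in replicates 1 and 2. The skin keratin Krt5 was counted in female controls only in replicates 3 and 4, at 2.89 and 1.41 CPM. The share of counts from mitochondrial genes moved with some of these libraries. It was 8.22%, 3.85%, 5.87% and 2.75% in female sedentary pain replicates 1 to 4 and at least 8.59% in each female control. Male sedentary pain replicate 1 had 4.53% against 10.4% to 11.3% in its companions, and male active pain replicate 2 had 5.97% against 8.14% to 12.6%. The adipocyte-rich and the T cell-rich pairs are all replicates 3 and 4, whose library numbers run from 25 to 45, while replicates 1 and 2 have 2 to 20. What these numbers stand for is not given in the sources used here. The part of the mitochondrial share and of this division in the results was not tested, beyond a fit with the replicate number as a block, which kept the call of each of the 5 members called in female sedentary pain against control. In bulk tissue, fewer cells of a type and less RNA per cell cannot be told apart, and the part of these cells in the results was not tested. Nothing in the labels says that each library is 1 animal, so p-values measure the spread between these libraries, which may be technical in part.

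Scaled per kilobase of exon, which allows one gene to be set beside another, the 10 genes covered a wide range of levels. Ptges3 was the most abundant, with a median over the 24 libraries of 27.0 CPM per kilobase, followed by Ptges2 at 7.06. Ptges at 1.18, Hpgd at 1.15, Ptgs1 at 0.639 and Ptger4 at 0.274 came next. Hpgds at 0.0953, Ptgds at 0.0426, Ptgs2 at 0.0373 and Ptger2 at 0.0340 were the lowest. The range of Ptges3 over libraries (21.7 to 36.6) lay above every other gene. Below it the ranges of neighbours overlapped, from Ptges2 (5.35 to 9.72) and Ptges (0.795 to 9.01) down to Ptger2 (0.00 to 0.761). Within libraries, Ptger4 was above Hpgds in 24 of 24, Ptges2 above Ptges in 23, Ptgs1 above Ptger4 in 20 and Hpgd above Ptgs1 in 18. Hpgds was above Ptgds in 17 of 24, Ptges above Hpgd in 15, Ptgs2 above Ptger2 in 15 and Ptgds above Ptgs2 in 14, so the order of these pairs varied from library to library. Raw counts were as low as 0 per library for Ptgs2, Ptgds and Ptger2 and at least 1143 for Ptges3, and the low genes carry the larger counting error.

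**Figure D1:**
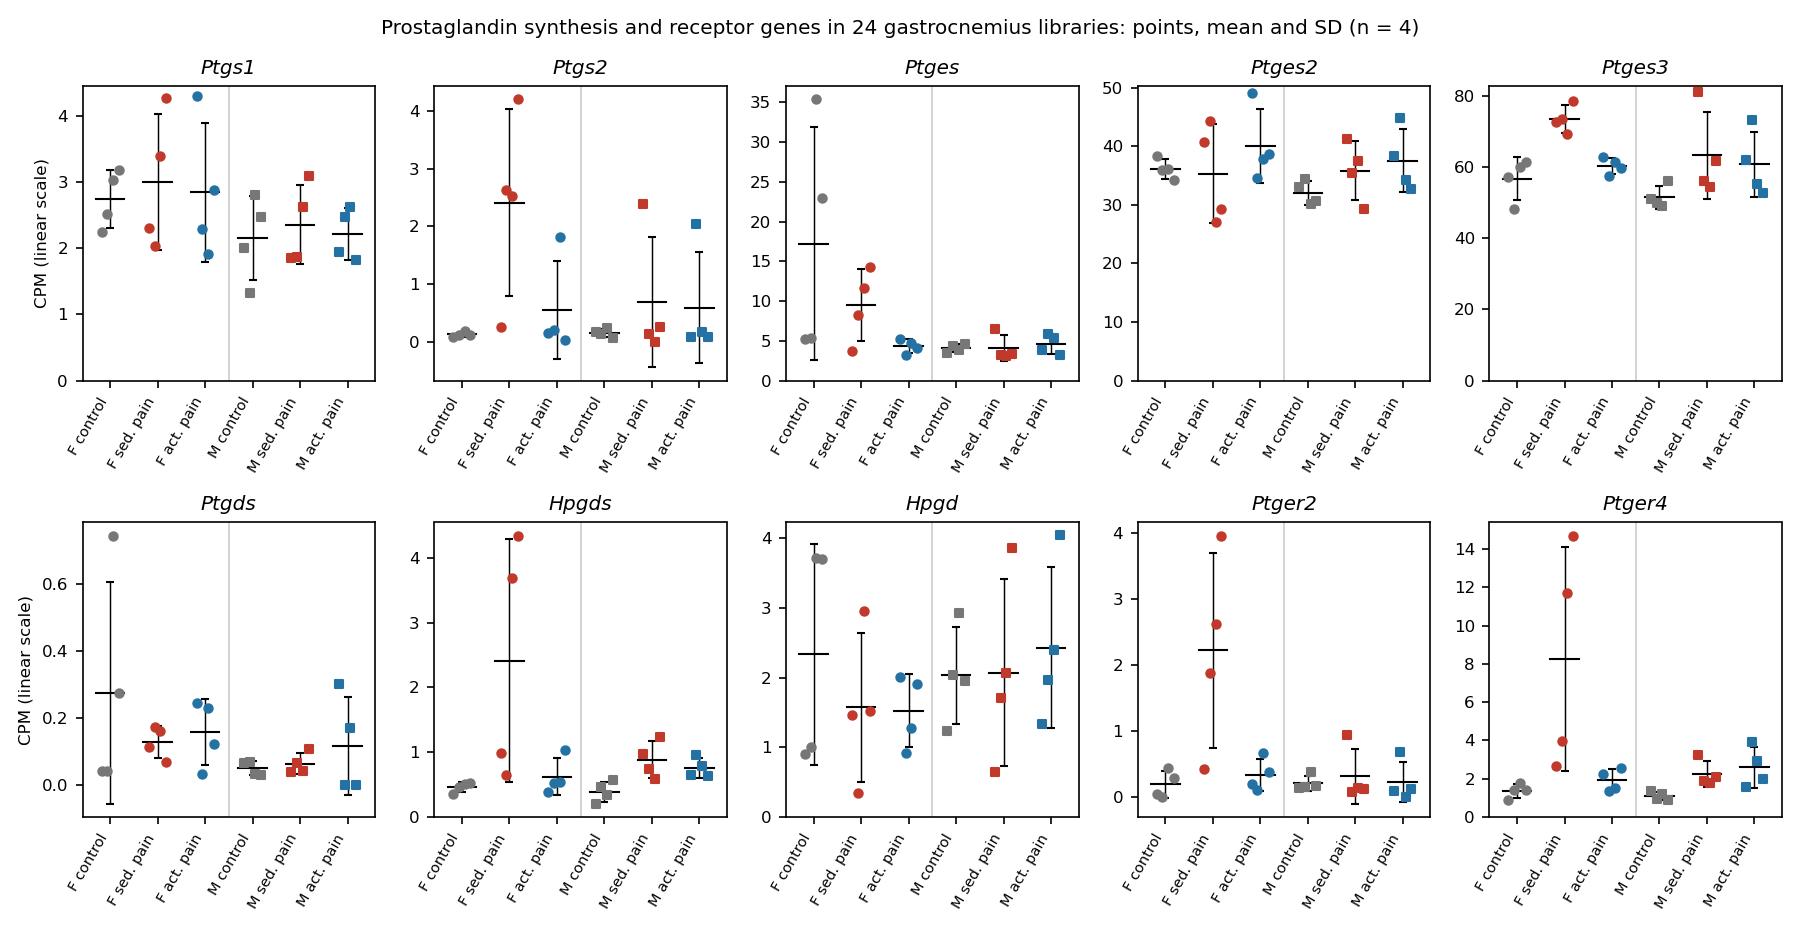
CPM of each gene in each of the 24 libraries (linear axes, a separate scale per gene), with circles for females, squares for males, horizontal lines for means and bars for SD (n = 4). In Ptgs2, single libraries at 1.81 CPM (female active), 2.38 CPM (male sedentary pain) and 2.04 CPM (male active) sit far above the others of their groups, whereas Ptger4 in female sedentary pain lies above female controls in every library.

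In female sedentary pain against female controls, 5 of the 9 members tested rose and none fell. They were Ptgs2, Ptges3, Hpgds, Ptger2 and Ptger4. In that comparison 33.5% of the 14511 genes tested were called (19.6% of those tested were higher in pain and 13.9% lower), where called means a Benjamini-Hochberg adjusted p under 0.05 in edgeR's quasi-likelihood test. For 4 members the highest control lay below the lowest pain library: Ptgs2, Ptges3, Hpgds and Ptger4, and 26.3% of the genes tested had no overlap between the groups either way. The median log2 fold change of the 9 members was 0.36, against -0.02 over all genes tested.

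Of the cyclooxygenases, Ptgs1 (chr2:36230426-36252272, plus strand) had female control values of 2.25, 2.52, 3.04 and 3.18 CPM and female sedentary pain values of 2.31, 2.04, 3.40 and 4.27 CPM. The groups overlapped. Its log2 fold change was 0.11 ± 0.29 (SE), with an edgeR adjusted p of 0.778. In the other 4 groups Ptgs1 lay between 1.33 and 4.31 CPM, and no comparison called it.

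Ptgs2 (chr1:150100031-150108227, plus strand) stood at 0.0866, 0.126, 0.195 and 0.122 CPM in female controls, which is 2 to 5 counts per library. The 4 female sedentary pain libraries had 0.265, 2.63, 2.53 and 4.20 CPM, or 7, 45, 78 and 119 counts. Replicate 1 was barely above the controls and the other 3 were far above them. The change was 17.2-fold, a log2 fold change of 4.11 ± 1.08 (edgeR adjusted p = 0.0166). Without replicates 3 and 4, the libraries rich in T cell and macrophage markers, it was 3.34 ± 1.26 and not called (edgeR adjusted p = 0.106), and without female control replicates 3 and 4 it was 4.39 ± 1.64 (edgeR adjusted p = 0.0795).

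In each of the other 3 pain groups Ptgs2 was high in 1 library. Female active pain gave 0.147, 0.212, 1.81 and 0.0304 CPM, and male active pain gave 0.0861, 2.04, 0.171 and 0.0791 CPM. Male sedentary pain gave 2.38, 0.134, 0.00 and 0.255 CPM, while male controls ran from 0.0629 to 0.237 CPM. The 3 single high libraries were those with the highest summed neutrophil markers of their groups, at 112, 78.6 and 300 CPM in the same order. These libraries also had the highest mast cell sums of their groups, at 46.6, 35.8 and 35.5 CPM. The male ones had the highest macrophage and monocyte sums too, at 395 CPM (active) and 645 CPM (sedentary pain). In female sedentary pain the orders differed: replicate 2, with the most neutrophil markers (254 CPM), had 2.63 CPM of Ptgs2, and replicate 4, with 57.3 CPM, had 4.20 CPM. Female active pain replicate 2, with 48.5 CPM of neutrophil markers, had 0.212 CPM of Ptgs2. In the fit of males alone its counts were too low for the filter, and it was not tested.

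Set beside Ptgs1 in the same library and per kilobase, Ptgs2 was 0.0326 to 0.0544 times as abundant in female controls and 0.0215 to 0.0893 times in male controls. In female sedentary pain replicates 1 to 4 the ratio was 0.0973, 1.09, 0.630 and 0.834. It was 1.09 in male sedentary pain replicate 1, 0.797 in female active pain replicate 3 and 0.698 in male active pain replicate 2. The other 9 libraries of those 3 groups had ratios from 0.00 to 0.0783. In 2 libraries Ptgs2 was counted at a level per kilobase slightly above Ptgs1, and in all 8 controls it was at most 0.0893 times as abundant.

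**Figure D2:**
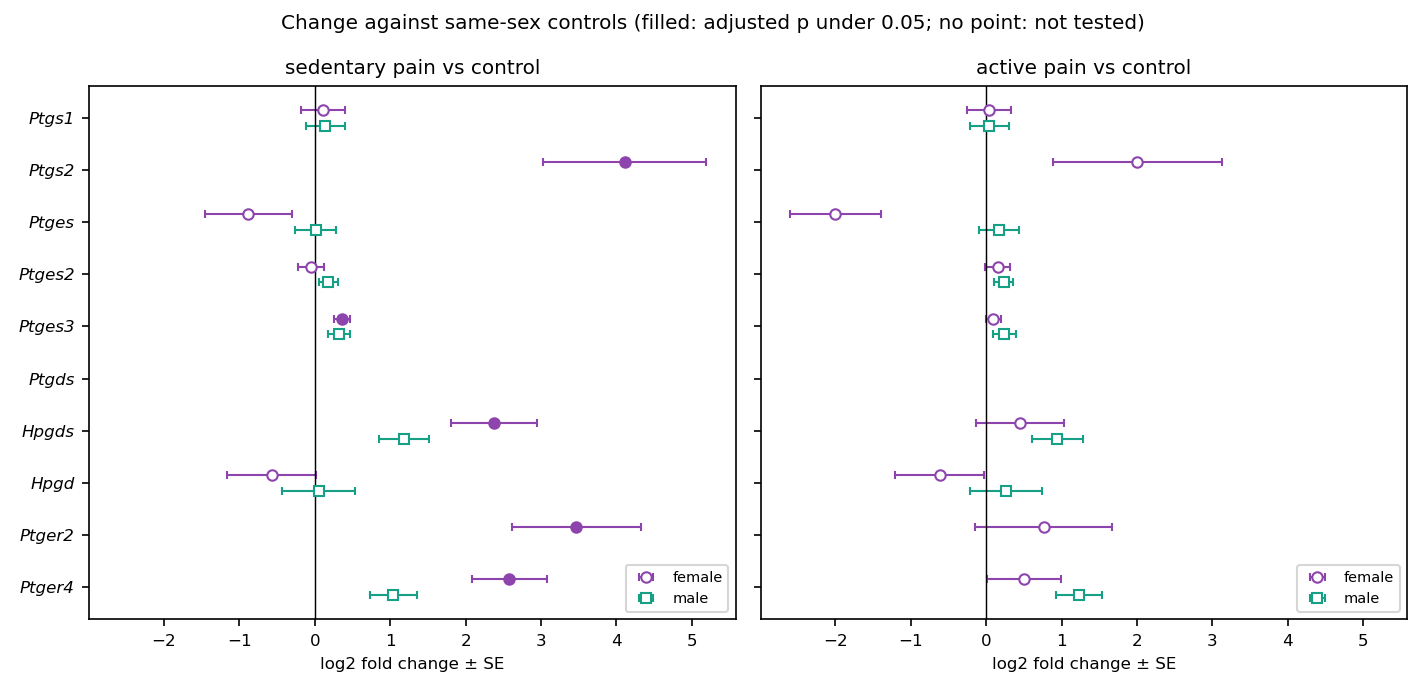
Log2 fold changes against same-sex controls with their SE, for sedentary pain (left) and active pain (right), with females as circles and males as squares. Filled symbols passed an adjusted p of 0.05, which 5 genes did in female sedentary pain and none in the other 3 comparisons.

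The prostaglandin E synthases did not move as a group. Ptges (chr2:30889471-30929863, minus strand), the membrane-bound enzyme that is usually induced alongside Ptgs2, had 5.16, 5.38, 35.4 and 23.0 CPM in female controls. Female sedentary pain had 3.70, 8.29, 11.7 and 14.3 CPM, 1 library below the controls and 3 inside their range. The log2 fold change was -0.88 ± 0.58 (edgeR adjusted p = 0.243), and without control replicates 3 and 4 it turned to 0.81 ± 0.43 (edgeR adjusted p = 0.18). Those 2 control libraries are the ones with 873 and 441 CPM of adipocyte markers. Female active pain had 5.19, 3.25, 4.77 and 4.10 CPM, and every male library lay between 3.12 and 6.50 CPM.

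Ptges2 (chr2:32395896-32405772, plus strand), another membrane-associated synthase, had 38.4, 35.9, 36.2 and 34.2 CPM in female controls and 40.8, 44.3, 27.0 and 29.3 CPM in female sedentary pain. The pain libraries fell on both sides of the controls, and replicates 3 and 4 were the low pair. Its log2 fold change was -0.05 ± 0.17 (edgeR adjusted p = 0.822). Across all 24 libraries it ran only from 27.0 to 49.2 CPM.

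Ptges3 (chr10:128058954-128077272, plus strand), a cytosolic synthase that is also the HSP90 co-chaperone p23, had 57.2, 48.1, 60.1 and 61.4 CPM in female controls and 72.5, 73.5, 69.4 and 78.6 CPM in female sedentary pain. Each pain library was above each control. The rise was small but even, 1.28-fold, with a log2 fold change of 0.36 ± 0.10 (edgeR adjusted p = 0.0224). The call was lost without a filter on low counts (edgeR adjusted p = 0.0924), without control replicate 2 (0.0638) and without sedentary pain replicates 3 and 4 (0.076), with log2 fold changes of 0.32, 0.30 and 0.35.

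Among the prostaglandin D synthases, Ptgds (chr2:25466709-25470046, minus strand), the lipocalin-type enzyme, was close to absent. It had 84 counts over the 24 libraries, 0 to 19 in each, and did not pass the low-count filter of any edgeR fit described here. It entered only alternatives (edgeR without that filter, and DESeq2), where it was not called. Its highest value, 0.742 CPM, was in female control replicate 3, the library with the most adipocyte markers.

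Hpgds (chr6:65117293-65144908, minus strand), the haematopoietic form found in mast cells, macrophages and some T cells, had 0.347, 0.463, 0.507 and 0.519 CPM in female controls. In female sedentary pain it had 0.983, 0.642, 3.69 and 4.34 CPM. All 4 were above the controls, with replicates 3 and 4 several times above replicates 1 and 2. The change was 5.18-fold, a log2 fold change of 2.37 ± 0.57 (edgeR adjusted p = 0.0111). Without replicates 3 and 4 it was 0.82 ± 0.43 and not called (edgeR adjusted p = 0.196), and without control replicates 3 and 4 it was 2.54 ± 0.82 (edgeR adjusted p = 0.0578). Of the mast cell markers 5 of 6 were tested and none was called in this comparison, with sums of 13.5 to 55.2 CPM in sedentary pain against 15.7 to 38.2 CPM in controls. All 8 macrophage and monocyte markers and 5 of 6 neutrophil markers rose. Of the 5 T and NK cell markers 2 were tested, and both rose. The part of these cells in the change was not tested.

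Hpgd (chr8:56294585-56321043, plus strand), which oxidises prostaglandin E to an inactive form, had 0.910, 1.01, 3.71 and 3.70 CPM in female controls and 1.47, 0.350, 2.95 and 1.52 CPM in female sedentary pain. The groups overlapped, and the high control pair was again replicates 3 and 4. Its log2 fold change was -0.57 ± 0.59 (edgeR adjusted p = 0.455), and without that control pair it turned positive. In males the 12 values lay between 0.646 and 4.04 CPM, the lowest in male sedentary pain replicate 1, which had the highest Ptgs2 of the males. Per kilobase, Ptgs2 was 2.76 times Hpgd in female sedentary pain replicate 2, 1.36 times in male sedentary pain replicate 1 and 1.02 times in female sedentary pain replicate 4. In the other 21 libraries the ratio was between 0.00 and 0.523.

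Both receptor genes rose. Ptger2 (chr14:44988195-45003820, plus strand) had 0.0433, 0.00, 0.429 and 0.275 CPM in female controls, or 1, 0, 11 and 9 counts. Female sedentary pain had 0.416, 1.87, 2.62 and 3.95 CPM, or 11, 32, 81 and 112 counts. Replicate 1 fell inside the range of the controls and the other 3 lay above it. The log2 fold change was 3.47 ± 0.85 (edgeR adjusted p = 0.0121), and without sedentary pain replicates 3 and 4 it was 2.48 ± 0.97 (edgeR adjusted p = 0.114).

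Ptger4 (chr15:5206661-5244187, minus strand) had 0.866, 1.43, 1.76 and 1.41 CPM in female controls and 2.68, 3.97, 11.7 and 14.7 CPM in female sedentary pain. Every pain library was above every control. The change was 5.97-fold, with a log2 fold change of 2.58 ± 0.50 (edgeR adjusted p = 0.00469). Ptger4 was the member called under each of the alternatives run for this comparison. Without sedentary pain replicates 3 and 4 its log2 fold change was 1.26 ± 0.33 (edgeR adjusted p = 0.042), and without control replicates 3 and 4 it was 2.81 ± 0.71 (edgeR adjusted p = 0.0342). Exons of Ptger4 overlap those of Ttc33 on the other strand, which had 25518 counts over all libraries against 1910 for Ptger4. Whether the counting used strand is not given in the sources used here, so reads in the shared exons may be assigned to either. Ttc33 had a log2 fold change of -0.36 ± 0.13 in the same comparison (edgeR adjusted p = 0.0544), the opposite sign to Ptger4.

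**Figure D3:**
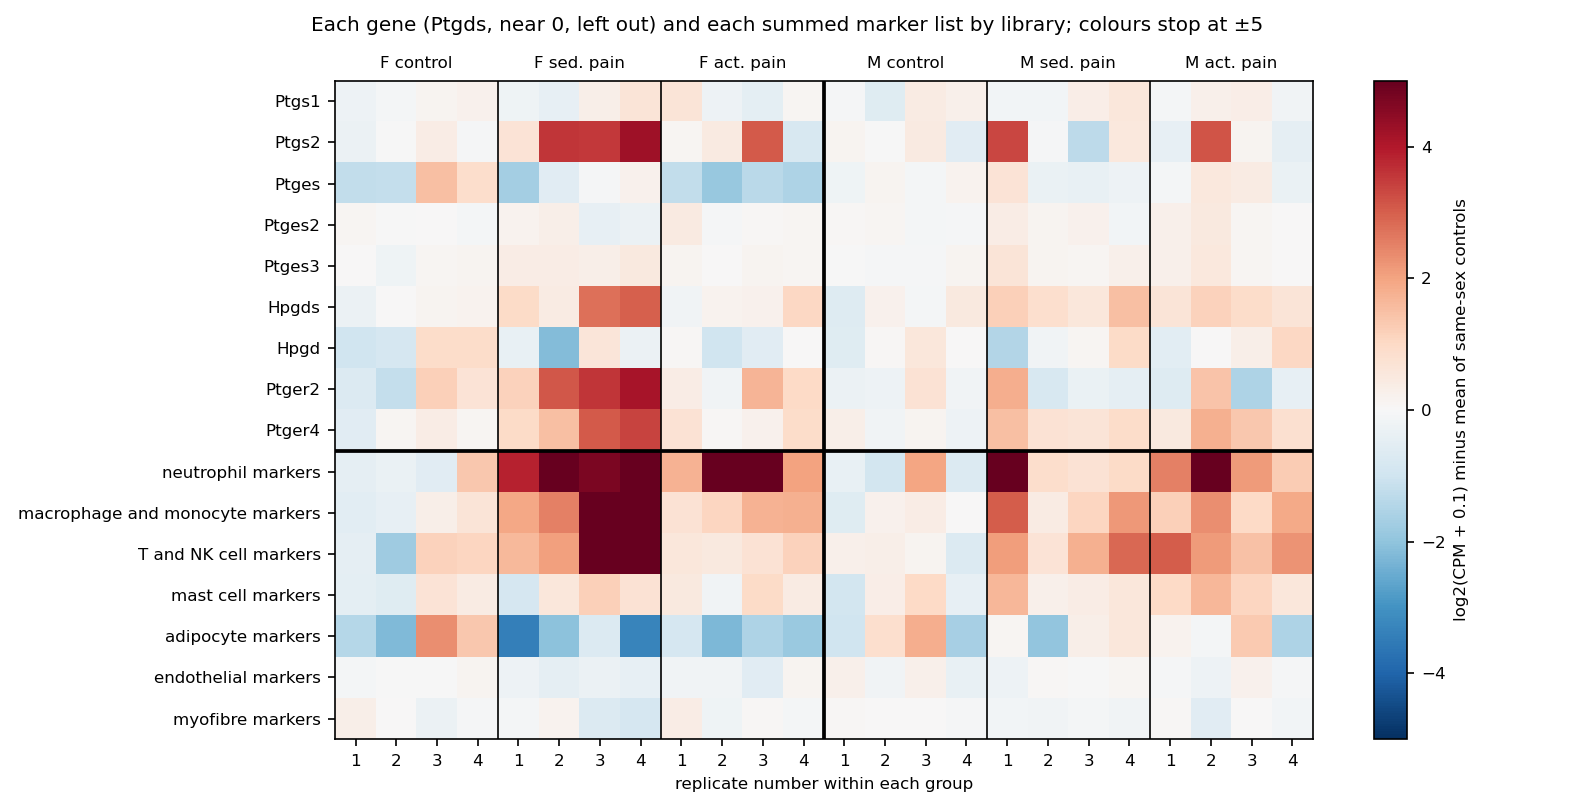
Each column is 1 library and each row 1 gene (above the line) or 1 summed marker list (below it), coloured by log2(CPM + 0.1), less the average of controls of the same sex, with colours limited to ± 5; Ptgds is left out. Hpgds, Ptger2 and Ptger4 are darkest in female sedentary pain replicates 3 and 4, together with the macrophage and T cell rows, and the libraries dark for Ptgs2 are dark in the neutrophil row; female active pain replicate 2 is dark for neutrophils (48.5 CPM) but not for Ptgs2 (0.212 CPM).

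Between female active pain and female sedentary pain, 3 of 9 members were called, each lower in active pain: Hpgds, Ptger2 and Ptger4. In this comparison 11.9% of 14511 genes were called, 9.41% lower and 2.51% higher in active pain. It shares the sedentary pain libraries with the comparison above, so the 2 sets of values are not independent. Ptger4 had 2.25, 1.38, 1.54 and 2.58 CPM in female active pain, each below the lowest sedentary pain value of 2.68 CPM. Ptges3, with 62.8, 57.5, 61.4 and 59.8 CPM in active pain, also did not overlap sedentary pain, and 11.8% of genes tested did not overlap.

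The log2 fold change of Ptger4, active against sedentary pain, was -2.08 ± 0.49 (edgeR adjusted p = 0.0328). Hpgds had 0.392, 0.529, 0.539 and 1.03 CPM in active pain, with 1 library inside the sedentary pain range and a log2 fold change of -1.92 ± 0.55 (edgeR adjusted p = 0.0446). Ptger2 had 0.196, 0.106, 0.654 and 0.365 CPM and a log2 fold change of -2.71 ± 0.80 (edgeR adjusted p = 0.0479). These 3 calls sit near the threshold, and all 3 were lost without a filter on low counts, with edgeR adjusted p of 0.0546, 0.0604 and 0.0768. Leaving out any of active pain replicates 1, 2 and 4 or sedentary pain replicates 3 and 4 also ended each call, as did leaving out active pain replicate 3 for Hpgds and sedentary pain replicate 2 for Ptger2. Without both sedentary pain replicates 3 and 4 the changes were -0.77, -0.37 and -1.72, with edgeR adjusted p of 0.329, 0.667 and 0.4.

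For Ptges3 the active against sedentary change was -0.27 ± 0.10 (edgeR adjusted p = 0.0977), and DESeq2 called it (-0.27, adjusted p = 0.0429), which makes 4 members called by DESeq2 in this comparison. Ptgs2 had -2.11 ± 0.92 (edgeR adjusted p = 0.14), and without active pain replicate 3, its single high library, -4.23 ± 0.86 (edgeR adjusted p = 0.0272). It was also called without sedentary pain replicate 1, its low library, at -2.52 ± 0.82 (edgeR adjusted p = 0.0406). Of the macrophage and monocyte markers 7 of 8 were called lower in active pain, with sums of 163 to 334 CPM there. Both of the T and NK cell markers tested were called lower as well (median log2 fold change -4.62, against -2.61 for the macrophage list), while 0 of 6 neutrophil markers were called (median -0.73, smallest edgeR adjusted p = 0.0504). The part of these cells in the members' changes was not tested.

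Against female controls, no member was called in female active pain, and no gene of the 14511 tested was (0.0%). At an unadjusted p under 0.05 edgeR gave 1 member and 1020 genes, and DESeq2 called 1 member and 131 genes. That member was Ptges, with a log2 fold change of -2.0 ± 0.60 (edgeR adjusted p = 0.565), whose control mean rests on the adipocyte-rich pair. Ptger4 had 0.50 ± 0.49 and Hpgds 0.45 ± 0.58, with edgeR adjusted p of 0.842 and 0.857. Ptgs2 had 2.0 ± 1.12 (edgeR adjusted p = 0.812), and -0.10 without active pain replicate 3.

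In males, 7 members could be tested, as Ptgs2, Ptgds and Ptger2 did not pass the filter. None was called in sedentary pain against control, active pain against control or active against sedentary pain, and none of 14404 genes was (0.0% in each). Unadjusted p was under 0.05 in edgeR for 2, 2 and 0 members and for 1273, 1045 and 121 genes. DESeq2 called 0, 1 and 0 members and 280, 123 and 0 genes. The members with an unadjusted p under 0.05 were Hpgds and Ptger4 in both comparisons with controls.

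Ptger4 had 1.36, 0.944, 1.22 and 0.881 CPM in male controls, 3.23, 1.87, 1.77 and 2.11 CPM in male sedentary pain, and 1.55, 3.92, 2.91 and 1.98 CPM in male active pain. Every pain library of both kinds was above every control. Its log2 fold changes were 1.04 ± 0.31 in sedentary pain (edgeR adjusted p = 0.318) and 1.23 ± 0.31 in active pain (edgeR adjusted p = 0.465; 0.037 in DESeq2). The 2 comparisons share the male controls. Summed macrophage and monocyte markers were also apart from controls in males. They held 51.7 to 103 CPM in controls, 106 to 645 CPM in sedentary pain and 157 to 395 CPM in active pain.

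Hpgds had 0.205, 0.454, 0.339 and 0.566 CPM in male controls, 0.969, 0.736, 0.591 and 1.24 CPM in male sedentary pain, and 0.646, 0.960, 0.786 and 0.633 CPM in male active pain, again without overlap. Its log2 fold changes were 1.18 ± 0.33 (edgeR adjusted p = 0.3) and 0.94 ± 0.34 (edgeR adjusted p = 0.566). Hpgds and Ptger4 were the only members without overlap in either comparison, where 8.07% and 10.4% of genes tested did not overlap. Summed T and NK cell markers, low in males, did not overlap controls either. They held 0.0943 to 0.28 CPM in controls, 0.401 to 2.15 CPM in sedentary pain and 0.752 to 2.45 CPM in active pain. The part of macrophages and of these cells in the changes of both members was not tested.

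Ptges3 in males had 51.1, 49.8, 49.0 and 56.1 CPM in controls and 81.1, 56.0, 54.4 and 61.7 CPM in sedentary pain, with a log2 fold change of 0.32 ± 0.15 (edgeR adjusted p = 0.564). Its high library, replicate 1, is the neutrophil-rich one. Ptger2 was at 0.928 CPM in that library and at 0.0669, 0.127 and 0.109 CPM in the other 3, and male controls had 0.136 to 0.373 CPM. Ptges stood at 6.50 CPM there and at 3.12 to 3.35 CPM in the rest of the group.

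Averaged over the sexes in the fit of all 24 libraries, the same 5 members were called higher in sedentary pain than in controls, beside 22.5% of 15103 genes called higher and 14.9% lower, 37.4% in all. The log2 fold changes were 1.81 ± 0.31 for Ptger4 (edgeR adjusted p = 0.000372), 1.78 ± 0.34 for Hpgds (0.000961), 0.34 ± 0.09 for Ptges3 (0.00696), 3.14 ± 0.91 for Ptgs2 (0.0137) and 2.03 ± 0.69 for Ptger2 (0.0286). Ptger4 and Hpgds were above the same-sex controls in all 8 sedentary pain libraries. Of all genes tested, 26.3% in females and 8.07% in males did not overlap in either direction. The share without overlap in both sexes was not computed. The calls of Ptgs2 and Ptger2 rested in part on male sedentary pain replicate 1: without it they were 1.97 ± 0.94 (edgeR adjusted p = 0.121) and 1.25 ± 0.75 (0.214). Ptger2 was not called either without female control replicate 1 or 2, female sedentary pain replicate 4, or male control replicate 1, 2 or 4, with edgeR adjusted p from 0.0504 to 0.0675. Without female sedentary pain replicates 3 and 4, Ptgs2 was 2.73 ± 0.99 (edgeR adjusted p = 0.0599) and Ptger2 1.53 ± 0.75 (0.134), while Ptger4 was 1.14 ± 0.23 (0.00411). Without that library and the neutrophil-rich male active pain library, Ptger4 was 1.69 ± 0.29 (edgeR adjusted p = 0.000556).

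In active pain against control over both sexes, no member was called by edgeR or DESeq2, and edgeR called 0.0331% of the genes. Unadjusted p was under 0.05 for 3 members, Ptger4, Ptges and Ptgs2. In active against sedentary pain over both sexes edgeR called no member and no gene (0.0%), with 3 members and 3274 genes at an unadjusted p under 0.05. DESeq2 called 2 members, Hpgds (-1.09 ± 0.35, adjusted p = 0.0325) and Ptger4 (-0.95 ± 0.30, adjusted p = 0.0301). DESeq2 called 1281 genes there, and 505 in active pain against control. In edgeR these 2 members had adjusted p of 0.082 and 0.0843, and both were called without female sedentary pain replicate 1 or 2, as was Ptger4 without male active pain replicate 2, with log2 fold changes of -1.23 to -1.06.

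The difference between the sexes was tested as the male change minus the female change. No member and no gene was called by edgeR for sedentary pain against control, active pain against control or active against sedentary pain (0.0% in each). Members with an unadjusted p under 0.05 numbered 2, 1 and 2, and genes 1446, 307 and 2224. DESeq2 called 0, 0 and 1 members and 21, 3 and 108 genes. For Ptger4 the sedentary pain change was smaller in males by a log2 difference of -1.58 ± 0.60 (edgeR adjusted p = 0.447). Its active against sedentary change differed by 2.30 ± 0.59 (edgeR adjusted p = 0.228; 0.0379 in DESeq2). That difference was called without female sedentary pain replicate 1 (2.59 ± 0.52, edgeR adjusted p = 0.0222) and without male sedentary pain replicate 1 (2.53 ± 0.62, 0.0228). Ptger2 differed by -2.92 ± 1.39 in sedentary pain against control (edgeR adjusted p = 0.518), and by -4.41 ± 1.22 without the neutrophil-rich male pair (0.0493). Over all 24 libraries, a rise called in females and not in males is therefore not shown to differ between them.

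Among controls, Ptges was the 1 member that differed between the sexes, lower in males with a log2 fold change of -2.09 ± 0.50 (edgeR adjusted p = 0.0231). Of all genes 2.83% were called and 1.28% were lower in males. Female control replicates 1 and 2, at 5.16 and 5.38 CPM, were close to the male controls at 3.51, 4.40, 3.80 and 4.53 CPM. Without the adipocyte-rich replicates 3 and 4 the log2 fold change was -0.39 ± 0.38 (edgeR adjusted p = 1). The call also ended without female control replicate 3 (-1.46 ± 0.45, edgeR adjusted p = 0.167), female control replicate 4 (0.0726) or any 1 male control (0.0635 to 0.0857). It was lost as well in the fit with the replicate number as a block.

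The wider eicosanoid pathway was described with 36 further genes, of which 28 were tested in females. In female sedentary pain against control 9 of them rose and 2 fell, beside 19.6% of all genes tested called higher and 13.9% lower. Their median log2 fold change was 0.21, against -0.02 over all genes tested. Of the 9 lipoxygenase and leukotriene genes, 8 were tested and 5 rose, the 3 described next with Alox5 and Alox15. Alox5ap, the protein that presents arachidonic acid to 5-lipoxygenase, went from 3.03, 2.57, 5.23 and 5.25 CPM to 16.8, 57.0, 65.9 and 128 CPM (log2 fold change 4.03 ± 0.59, edgeR adjusted p = 0.0026). Ltb4r1, the receptor of leukotriene B, rose by 3.77 ± 0.74 (edgeR adjusted p = 0.00495), and Cysltr1, a receptor of the cysteinyl leukotrienes, by 2.21 ± 0.42 (edgeR adjusted p = 0.00458). For these 3 genes the pain libraries did not overlap the controls, as for 26.3% of all genes tested.

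Of the 5 other prostanoid synthases 1 rose. Tbxas1, the thromboxane synthase, went from 0.996, 1.01, 1.60 and 1.65 CPM to 4.73, 5.25, 23.2 and 38.5 CPM (log2 fold change 3.74 ± 0.64, edgeR adjusted p = 0.00318). Of the 7 phospholipase A2 and annexin genes tested, 1 rose, and of the 4 transport and reductase genes 1 rose and 1 fell. Pla2g4a, the cytosolic phospholipase, had 0.996 to 1.47 CPM in controls and 1.55, 0.700, 10.9 and 6.31 CPM in sedentary pain (2.02 ± 0.66, edgeR adjusted p = 0.0354). Replicate 2 was below every control, and without replicates 3 and 4 the change was -0.06 (edgeR adjusted p = 0.928). Its call also ended without either of those libraries, without any 1 control or the pair of control replicates 3 and 4, and without a filter on low counts (edgeR adjusted p from 0.0597 to 0.116). The reductase gene Ptgr1 had 1.52 to 2.46 CPM in controls and 2.46, 4.20, 4.89 and 8.96 CPM in sedentary pain (1.33 ± 0.35, edgeR adjusted p = 0.016), and it was not called without sedentary pain replicates 3 and 4 (0.71, 0.135) or control replicates 3 and 4 (1.43, 0.0602). The one that fell was Ptgr2, a prostaglandin reductase, from 60.5, 64.4, 70.1 and 55.1 CPM to 53.6, 37.4, 37.7 and 35.9 CPM (-0.62 ± 0.15, edgeR adjusted p = 0.0101). Without sedentary pain replicates 3 and 4, Ptgr2 and Cysltr1 were no longer called, at -0.47 and 1.27 (edgeR adjusted p = 0.0946 and 0.0534).

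Among the other prostanoid receptors 1 rose, Ptgir, and 1 fell. Without sedentary pain replicates 3 and 4 Ptgir was at 0.38 (edgeR adjusted p = 0.322), and its call also ended without either of them, without control replicate 1, 2 or 4, or without the pair of control replicates 3 and 4 (edgeR adjusted p from 0.0562 to 0.0723). Without sedentary pain replicates 3 and 4 Alox5 and Alox15 were not called either, at 1.19 and 1.75 (edgeR adjusted p = 0.0761 and 0.116), nor was Alox15 without replicate 4 alone (edgeR adjusted p = 0.0602). Alox5, Alox15, Pla2g4a, Ptgr1 and Ptgir are named here after their values were seen. Ptger3, the EP receptor that lowers cyclic AMP, moved in the opposite direction to Ptger2 and Ptger4. It had 2.04, 2.36, 16.4 and 15.7 CPM in female controls and 0.265, 0.584, 1.88 and 0.459 CPM in female sedentary pain (-3.51 ± 0.80, edgeR adjusted p = 0.00922). Every pain library was below every control. Without control replicates 3 and 4 the change was -1.47 (edgeR adjusted p = 0.115). Ptger1, the remaining EP receptor gene, was at 0.00 to 0.444 CPM in every library. The prostaglandin D receptor genes were nearly uncounted: Ptgdr had at most 3 counts in a group and Ptgdr2 at most 6. The phospholipase gene Pla2g10 had 0 counts in all 24 libraries.

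**Figure D4:**
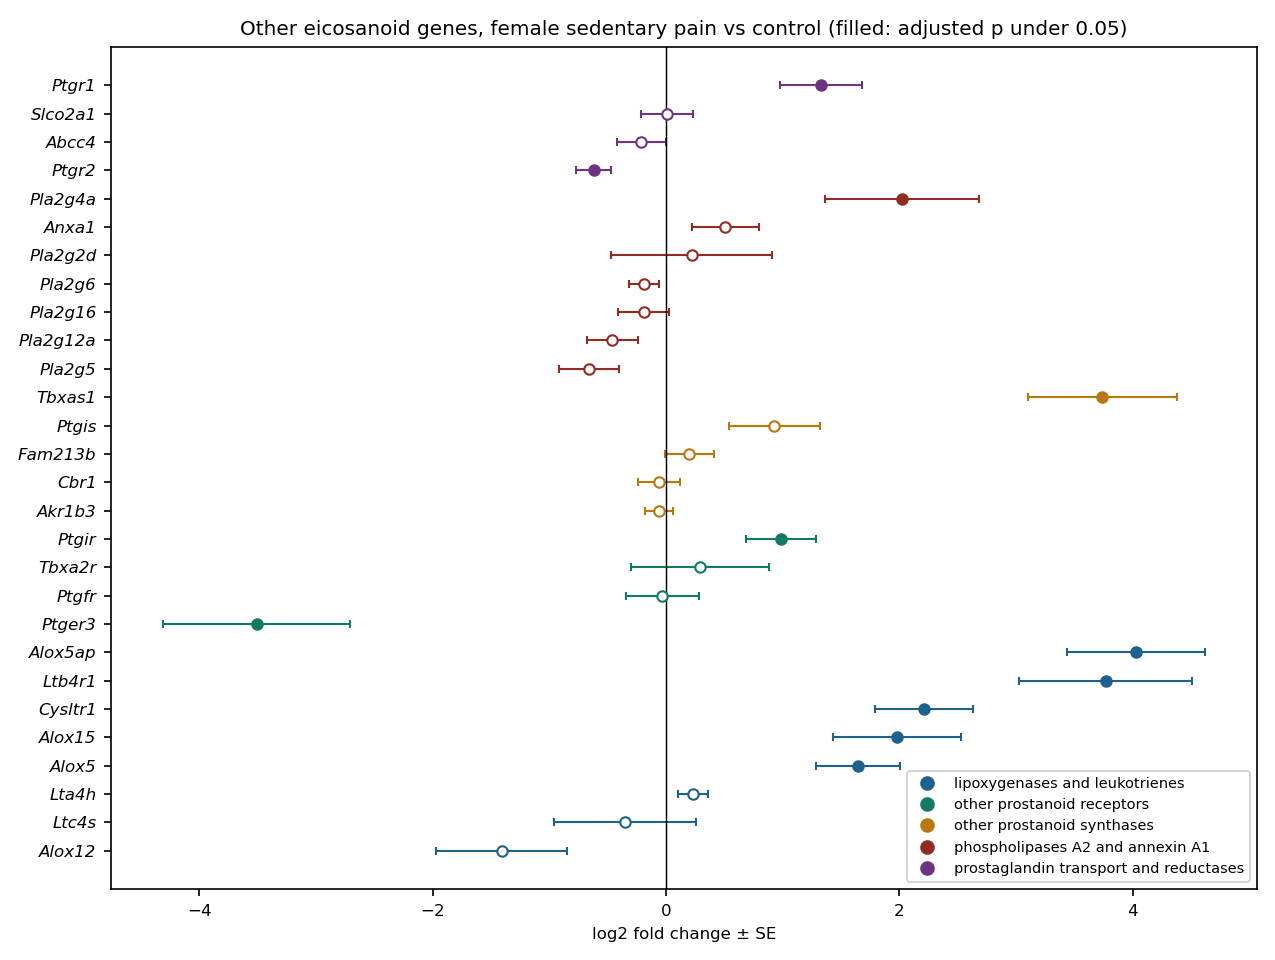
Log2 fold change with SE of the 28 tested eicosanoid genes outside the set of 10, in female sedentary pain against control, coloured by function; filled circles passed an adjusted p of 0.05. Alox5ap, Ltb4r1 and Tbxas1 lie between 3.74 and 4.03, and Ptger3 lies at -3.51.

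In female active against sedentary pain 5 of the 28 fell and 1 rose, beside 9.41% of all genes tested called lower and 2.51% higher. Tbxas1 (-2.77 ± 0.61) and Alox5ap (-2.28 ± 0.55) had an edgeR adjusted p of 0.0328 each, Cysltr1 (-1.47 ± 0.41) of 0.0405 and Ptgir, the prostacyclin receptor gene (-1.02 ± 0.30), of 0.0456. Ltb4r1, also named after its values were seen, was the fifth that fell. Ptgr2 rose by 0.48 ± 0.14 (edgeR adjusted p = 0.0496). The calls of all 6 were lost without a filter on low counts, without the pair of sedentary pain replicates 3 and 4, and without any 1 of those 2 libraries or of active pain replicates 1, 2 and 4. The calls of Cysltr1, Ptgir and Ptgr2 also ended without active pain replicate 3, and those of Ptgr2 and Ltb4r1 without sedentary pain replicate 2 and in 1 fit of all 24 libraries (0.47 and -2.32, edgeR adjusted p = 0.0537 and 0.156). None of 27 tested genes was called in males in any of the 3 comparisons.

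Over both sexes 9 of the 28 rose and 3 fell in sedentary pain, beside 22.5% of all genes called higher and 14.9% lower. The leading genes were Alox5ap at 3.49 ± 0.54 (edgeR adjusted p = 0.000244), Tbxas1 at 2.75 ± 0.45 (0.000328), Alox5 at 1.48 ± 0.25 (0.00036) and Cysltr1 at 1.49 ± 0.29 (0.00114). The 3 that fell were Pla2g5, a secreted phospholipase (-0.68 ± 0.19, edgeR adjusted p = 0.0119), Ptger3 (-1.75 ± 0.51, 0.0145) and Ptgr2 (-0.37 ± 0.11, 0.0194). Without the adipocyte-rich female controls Ptger3 was at -0.76 (edgeR adjusted p = 0.192), and without female sedentary pain replicate 4 Ptgr2 was at -0.35 (0.0569). Over both sexes in active pain Alox5, the 5-lipoxygenase, was the 1 gene of the 28 that was called, at 1.39 ± 0.25 (edgeR adjusted p = 0.0432). Its values were 0.477 to 1.31 CPM in female controls and 1.71 to 2.77 CPM in female active pain, and 0.512 to 1.02 CPM in male controls and 1.21 to 3.0 CPM in male active pain. In neither sex did the groups overlap, but leaving out any 1 of 11 libraries ended the call (edgeR adjusted p from 0.0594 to 0.144). Of all genes tested in males 10.4% did not overlap in this comparison, and the share in females is not given here. Between control groups Pla2g5 (-1.54 ± 0.27, edgeR adjusted p = 0.00213) and Ptger3 (-2.73 ± 0.73, 0.0439) were lower in males. Without the adipocyte-rich female controls Ptger3 was at -0.69 (edgeR adjusted p = 1), and leaving out female control replicate 3 or 4, or male control replicate 1, 2 or 4, also ended its call (edgeR adjusted p from 0.13 to 0.202), as did the fit without a filter on low counts (-2.71, 0.0759).

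For the 6 members with a mean of at least 1 CPM, the genes most like them over the 24 libraries were listed by Spearman correlation among 12594 genes, as a description; these libraries share groups, depth and cell content. Ptger4 was most like Ccnd1 (0.90), B4galt6 (0.89) and Rinl (0.87), with Pearson values of 0.91, 0.92 and 0.94. After the group means were removed the Pearson values were 0.74, 0.76 and 0.83. The genes nearest to Ptges3 were the proteasome genes Psma2, Psmb1 and Psma7, each at 0.93, with Pearson values of 0.89, 0.90 and 0.87. Ptges was nearest to Tkt (0.89), Chst12 (0.88) and Slc25a1 (0.87), with Pearson values of 0.96, 0.78 and 0.91. Hpgd was nearest to Efemp1 (0.89), Pla2g2d (0.85) and Dpep1 (0.84), with Pearson values of 0.83, 0.87 and 0.87. For Ptges2 they were Rangrf (0.93), the pseudogene Gm10039 (0.92) and Dph3 (0.91), and Pearson values were 0.87, 0.89 and 0.88. Ptgs1 had lower values throughout, with Fam171a1 at 0.77, Mob3b at 0.75 and Rnf145 at 0.75, and Pearson values of 0.71, 0.75 and 0.66.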

How the data were processed

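RNA sequencing libraries of mouse gastrocnemius were used. Per the labels' protocols, they were stranded TruSeq libraries from 0.5 µg of total RNA, read in pairs. The authors deposited 1 raw count per Ensembl gene and library, as whole numbers, without normalization. The submitters' processing notes name HISAT2 2.1.0, Salmon 0.9.1, featureCounts, DESeq2 1.24.0, mm10 and GRCm38.p6 without their roles. How strand was used in counting is not given in the sources used here. Symbols and positions came from GENCODE M21 (GRCm38), which named 54409 and placed 54495 of the 54532 genes; all 115 listed symbols were found.

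Samples were grouped by their labels. Counts were scaled with TMM factors to CPM, and per kilobase by the union of exons. Genes were filtered by group (minimum count 10) and tested with edgeR 4.0.16 quasi-likelihood, robust and two-sided, in R 4.3.3: each sex in its own fit of 12 libraries, and sex differences, means over the sexes and controls in a fit of 24. P-values were adjusted over all genes tested (14511, 14404 and 15103). SE are those that match the test's p. No 2 libraries of the same group repeated each other within sampling noise. The fit was tested on simulated data.

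The members, marker lists and pathway list were chosen with earlier results of these data known. All members are named; of the wider list, up to 4 called genes per direction and comparison, by adjusted p, and genes wholly at 0. Alternatives were RLE scaling, DESeq2 1.42.0, no filter, no robust step, 1 fit of all libraries, a replicate block, plain library totals for levels, and each library left out. Chosen after seeing the data were fits without the adipocyte-rich female controls, without the T cell-rich female sedentary pain libraries (replicates 3 and 4 each) and without the neutrophil-rich male pain libraries. Figures were drawn with matplotlib 3.10.9.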

Additional observations from a re-analysis of the deposited data

Results flagged for a closer look

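Over the 10 genes and 6 groups, 60 sets of 4 values were searched for a highest or lowest library whose gap to its neighbour passes Dixon's 95% critical value, and 6 were found. That criterion passes about 1 in 20 sets by chance for independent values of a normal spread; many of these sets hold low counts and 3 of the 6 come from 1 library, so that rate need not hold here. Ptgs2 had such a library in 3 groups: 1.81 CPM (47 counts) in female active pain replicate 3, against 0.0304 to 0.212 CPM in the others; 2.38 CPM (59 counts) in male sedentary pain replicate 1, against 0.00 to 0.255 CPM; and 2.04 CPM (51 counts) in male active pain replicate 2, against 0.0791 to 0.171 CPM. In male sedentary pain replicate 1, Ptges stood at 6.50 CPM, against 3.12 to 3.35 CPM, and Ptger2 at 0.928 CPM, against 0.0669 to 0.127 CPM. Ptger2 in male control replicate 3 was at 0.373 CPM, which is 11 counts, against 0.136 to 0.157 CPM in the other male controls. That library also had the most neutrophil markers of its group, at 5.53 CPM against 0.664 to 1.02 CPM. It was the highest male control in several other lists as well. Among them were macrophage and monocyte (103 CPM), mast cell (22.1 CPM), adipocyte (180 CPM) and fibroblast (694 CPM) markers. The part of neutrophils and of these other cells in these values was not tested.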

How the results depend on the processing

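Over 111 changes of single members, 2115 values were recomputed under alternatives: 1930 kept direction and side of the threshold, 51 lost and 16 gained the call, and 118 turned sign, 108 of them for changes smaller than their SE. Direction and call held for 111 of 111 without the robust step, 110 with RLE scaling, 104 without a filter on low counts, 103 with DESeq2, and 47 of 48 in 1 fit of all libraries. Of 605 values for the called genes of the wider list, 506 held, 98 lost the call and 1 turned sign.

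Without the adipocyte-rich female controls, sign turned for Ptges in sedentary pain against control in females (0.81), over both sexes (0.38) and in the sex difference (-0.81), and for Hpgd in females (active 0.66, sedentary 0.70), both sexes (0.44, 0.35), the sex differences (-0.38, -0.65) and between controls (1.06). Without the T cell-rich pair it turned in sedentary pain against control for Ptgs1 (females -0.35, both sexes -0.11, sex difference 0.48), Ptges2 (females 0.22, sex difference -0.05), Hpgds (sex difference 0.35) and Pla2g4a (females -0.06). In active against sedentary pain it turned for Ptgs1 (females 0.38, both sexes 0.14), Ptges2 (females -0.08, both sexes -0.01, sex difference 0.14) and Hpgd (females 0.68, sex difference -0.46). Without the neutrophil-rich pair it turned for Ptger2 (-0.39, active pain, both sexes), Ptges (-0.31, male sedentary pain), Ptgs1 (0.15, sex difference in sedentary pain; 0.00, male active pain), Hpgd (0.00, active against sedentary pain, both sexes) and Ptges2 (0.00, sex difference in active pain). Ptges in male sedentary pain was -0.01 without a filter and in 1 fit of all libraries. The Ptgs1 sex difference in sedentary pain was 0.01 with DESeq2 and RLE scaling and 0.05 without a filter, and in active pain 0.00 with DESeq2 and without a filter.

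Leaving out 1 library turned further signs, with these ranges. Ptgs2 ran from -0.10 to 2.40 in female active pain against control (lowest without active pain replicate 3), -0.41 to 4.24 in the sex difference of active against sedentary pain (lowest without male active pain replicate 2), -2.40 to 2.01 in that of active pain and -0.10 to 0.45 between controls. Ptger2 ran from -0.40 to 0.79 in active pain over both sexes and -0.40 to 0.75 between controls, and Ptger4 from -0.07 to 0.42 in male active against sedentary pain. Hpgd in active against sedentary pain ran from -0.39 to 0.42 (females), -0.13 to 0.71 (males), -0.09 to 0.33 (both) and -0.22 to 0.79 (sex difference), in males against control from -0.07 to 0.49 (active) and -0.45 to 0.34 (sedentary), and between controls from -0.47 to 0.13. Ptges in male sedentary pain ran from -0.31 to 0.13. Ptges2 ran from -0.17 to 0.08 in female sedentary pain, 0.00 to 0.11 over both sexes, -0.04 to 0.12 in male active against sedentary pain and -0.02 to 0.19 in the sex difference of active pain, and Ptges3 from -0.17 to 0.07 in male active against sedentary pain. Ptgs1 ran from -0.23 to 0.17, -0.11 to 0.20 and -0.09 to 0.12 in active pain against control (females, males, both), -0.08 to 0.27 and -0.02 to 0.30 in sedentary pain (females, males), -0.35 to 0.13, -0.20 to 0.06 and -0.22 to 0.04 in active against sedentary pain (females, males, both), and -0.18 to 0.25, -0.18 to 0.27 and -0.26 to 0.26 in the sex differences of active pain, sedentary pain and active against sedentary pain. The cause was not tested.

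Counts of genes called with DESeq2 were 131 (female active pain against control), 3135 (female active against sedentary), 123 and 280 (male active and sedentary pain against control), 505 and 1281 (both sexes, active pain against control and against sedentary), 741 (controls), and 3, 108 and 21 (sex differences in active against control, active against sedentary, and sedentary against control). DESeq2 called 1 member in female and in male active pain against control and in the sex difference of active against sedentary pain, 2 in active against sedentary pain over both sexes and 4 in female active against sedentary pain. Without a filter, 174 genes and 0 members were called in female active against sedentary pain, and 8 genes in active pain against control over both sexes. With RLE scaling, 1 gene was called in active against sedentary pain over both sexes. Without the T cell-rich pair, female sedentary pain against control gave 1440 genes and 1 member, female active against sedentary pain 0 genes and 0 members, and over both sexes sedentary pain against control gave 2851 genes and 3 members and active against sedentary pain 2 genes. Without the adipocyte-rich pair, counts were 2536 genes and 3 members in female sedentary pain, 1 gene in active pain over both sexes, and 108 genes and 0 members between controls. Without the neutrophil-rich pair, they were 8 and 2 genes in male active and sedentary pain, 103 genes in active pain over both sexes, 3 members in sedentary pain over both sexes, and 591 genes and 1 member in its sex difference.

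Leaving out 1 library at a time gave 2486 to 6674 genes and 4 to 5 members in female sedentary pain, 0 to 4316 genes and 0 to 4 members in female active against sedentary pain, 3468 to 7215 genes and 3 to 5 members in sedentary pain over both sexes, 0 to 1923 genes and 0 to 2 members in active against sedentary pain over both sexes, 0 to 28 genes in active pain over both sexes, and 198 to 520 genes and 0 to 1 members between controls. For sex differences it gave 0 to 18 genes in sedentary pain, 0 to 1 in active pain, and 0 to 2174 genes and 0 to 1 members in active against sedentary pain. A group left with 2 or 3 libraries shares its spread with the other groups. On plain library totals, Ptges2 in male controls was 29.9 CPM, and Ptges3 had 82.0 CPM for female sedentary pain and 48.0 for male controls.

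Replicate numbers recur in every group, and libraries numbered 2 to 20 are replicates 1 and 2 while 25 to 45 are replicates 3 and 4. The mean correlation of same-numbered deviations was 0.103 in females and 0.00654 in males, with 6 and 3 of 12 pairs over 0.1 (highest 0.394 and 0.574), and 0 samples correlated best with their own number, so the numbers were not taken to pair libraries. With the replicate block, female sedentary pain against control gave 3739 genes and 5 members, and Ptges between controls was -1.90 (edgeR adjusted p = 0.0586), leaving 0 members called there. Of the wider list, the block ended the calls of Ptgr2 (0.50, edgeR adjusted p = 0.0704) and Ltb4r1 (-2.25, 0.0678) in female active against sedentary pain and of Pla2g4a (1.73, 0.0862) in female sedentary pain. It turned signs for Hpgd in female active against sedentary pain (0.18) and male sedentary pain (-0.13), Ptges in male sedentary pain (-0.02), the sex differences of Ptgs1 in active (0.02) and sedentary pain (0.03) and that of Ptgs2 in active pain (0.02). Depth limits Ptgs2, Ptger2, Hpgds, Hpgd and Ptgds most, with as few as 0 to 6 counts in a library.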
